A study of Homo sapiens with 6 samples.

Results

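The genes described are the cytosolic ribosomal protein genes of BT-549 cells, an established triple-negative breast cancer cell line of mesenchymal character. They were picked by symbol, as the rows named RPL or RPS with a number and an optional A or X, together with RPLP0, RPLP1, RPLP2, RPSA, RPS27L, RPL7L1 and RPL22L1. Earlier results of these data were known when this group was chosen. The rule found 80 of the 37887 rows of the count table. Of these, 46 code for proteins of the large (60S) ribosomal subunit, 31 for proteins of the small (40S) subunit, and 3 are paralogues, that is, diverged copies of a parent gene (RPS27L of RPS27, RPL7L1 of RPL7 and RPL22L1 of RPL22). A further 1142 rows carry the name of a pseudogene of 77 of the members, since processed copies of these short and abundant mRNAs are scattered through the genome; these rows are not members.

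Each ribosome holds, with few exceptions, a single copy of each of these proteins, and a protein made in excess of its partners is degraded. Their mRNAs are among the most abundant of growing cells and begin with a 5′ terminal oligopyrimidine (TOP) tract, a C followed by an uninterrupted run of C and U, through which mTORC1 and the RNA-binding protein LARP1 control their translation and stability together. In cancer cells the level of ribosomal protein mRNAs is followed as a readout of growth, and a few of the proteins have roles outside the ribosome, such as the binding of MDM2 by RPL5 and RPL11.

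RNA-seq was performed on 3 libraries titled control shRNA and 3 libraries titled shPBRM1. The treatment labels pair the control libraries with 0.1% DMSO as vehicle and the shPBRM1 libraries with 500 ng/ml doxycycline (DOX) in cells that carry a DOX-inducible PBRM1 shRNA, and so DOX exposure cannot be told apart from loss of PBRM1. The titles name a control shRNA, while the treatment labels give vehicle only, so that whether the controls are a line of their own or vehicle-treated cells of the same line is not settled by the labels. All libraries come from this single cell line and, for the silenced cells, a single PBRM1 shRNA in a puromycin-selected lentiviral vector, and were labelled as triplicate cultures. PBRM1 codes for the chromatin-targeting subunit of the PBAF remodeling complex, and the comparison asks which transcripts depend on it.

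Total counts lay between 36429395 and 65096297 per library. Levels are given as CPM, counts relative to the TMM-scaled size of the library, and a change as the log2 fold change of shPBRM1 over control from edgeR's quasi-likelihood test, called at a Benjamini-Hochberg adjusted p under 0.05 over the 15450 genes that passed the filter on low counts. PBRM1 itself was at 157, 157 and 161 CPM in control and 43.3, 40.9 and 41.7 CPM in shPBRM1 cells (log2 fold change -1.91 ± 0.03, SE; adjusted p = 1e-22). As to cell identity, VIM and CDH2, which mark mesenchymal cells, were at 602 to 781 and 247 to 374 CPM. Of the receptor genes, ESR1 had at most 2 counts and PGR at most 12 counts in a library. ERBB2 was at 49.6 to 52.4 CPM over the 6 libraries and was not called (log2 fold change -0.04, adjusted p = 0.47). Of the markers of other cell types, the T cell gene CD3E had 0 counts in all 6 libraries, which allows a level of up to 0.0824 CPM in the shallowest, and EPCAM, CDH5 and PECAM1 had at most 8, 5 and 18 counts. The leukocyte gene PTPRC had 26, 40 and 44 counts in control and 12, 4 and 6 in shPBRM1 libraries (log2 fold change -2.55, adjusted p = 6.3e-06). The epithelial gene CDH1 went from 4.98, 4.65 and 5.37 to 1.83, 1.49 and 1.21 CPM (-1.73, adjusted p = 9.6e-10). The part of these 2 genes' change in the results below was not tested. Libraries of a group differed beyond sampling noise, most of all shPBRM1 replicate 1 from replicates 2 and 3, where chi-square over its degrees of freedom was 21.5 and 24.9. The mitochondrially encoded genes took 3.47% to 4.05% of control and 3.01% to 3.45% of shPBRM1 counts, and what part this share has in the results below was not tested.

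Ribosomal protein mRNAs were higher in shPBRM1 cells nearly throughout, by a modest amount that differed between genes. Among those called higher, log2 fold changes ran from 0.13 (RPL12) to 0.78 (RPS21). Of the 80 genes, all of which passed the filter, 73 rose, 1 fell and 6 were not called; with the replicate number as a block 2 fell, since RPS9 joined RPL22L1. Over all tested genes 31.5% were called higher and 33.2% lower. Their median log2 fold change was 0.42, or 1.34-fold, with the middle of the distribution between 0.31 and 0.55 (first and last quartile), while the median over all tested genes was -0.01. By edgeR and by DESeq2, none of the 80 passed an adjusted p under 0.05 with a fold change over 2, which 12.6% of all tested genes passed. In 71 of the 80, the lowest shPBRM1 library lay above the highest control library, an order that 33.3% of all tested genes showed. RPL29 and RPL41 were called higher although 1 shPBRM1 library, replicate 1, lay within the control range. Without shPBRM1 replicate 1, the library that stood apart, the median was 0.46 and the same 73 genes were called higher.

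**Figure D1:**
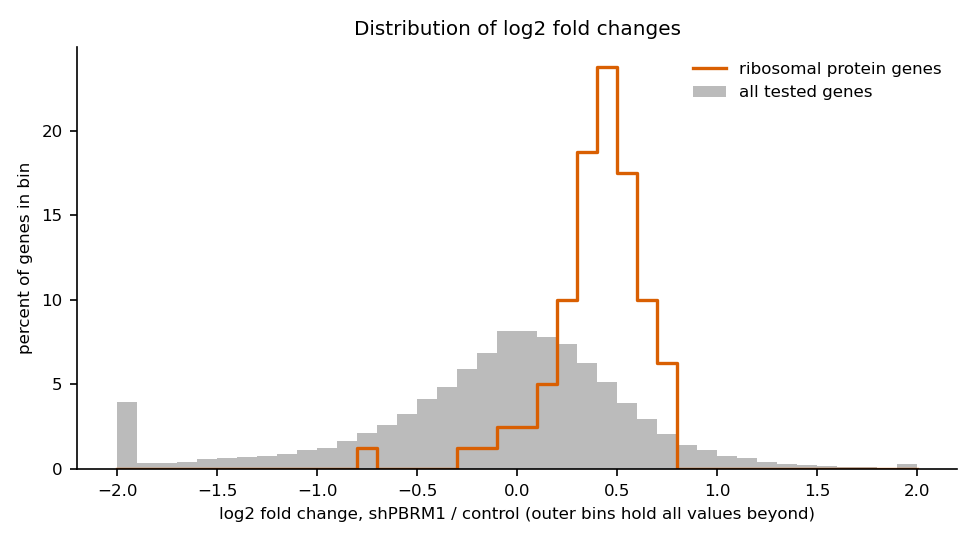
Distribution of log2 fold changes (shPBRM1 over control, x axis, in bins of 0.1, with everything beyond the range collected in the outer bins) as the percent of genes in each bin (y axis), for all 15450 tested genes in grey and the 80 ribosomal protein genes as an orange line. The grey distribution is centred near 0, and the ribosomal protein genes are gathered around 0.42 with a single gene at -0.72.

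The summed level of the 80 genes was 32248, 34543 and 33161 CPM in the control and 43240, 45728 and 46481 CPM in the shPBRM1 libraries. All 3 shPBRM1 libraries thus lay above all 3 controls, at 1.36 times the control mean. As a share of unscaled counts the genes took 3.30%, 3.50% and 3.36% of the control and 4.31%, 4.45% and 4.55% of the shPBRM1 libraries. In bulk RNA a rise of these mRNAs in each cell, a larger share of cells rich in them and a fall of the other RNA cannot be told apart. The pseudogene rows held at most 1.25% of the counts of members and pseudogenes together in any library, and their summed level went from 408 ± 14.6 to 566 ± 19.6 CPM (SD, n = 3).

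**Figure D2:**
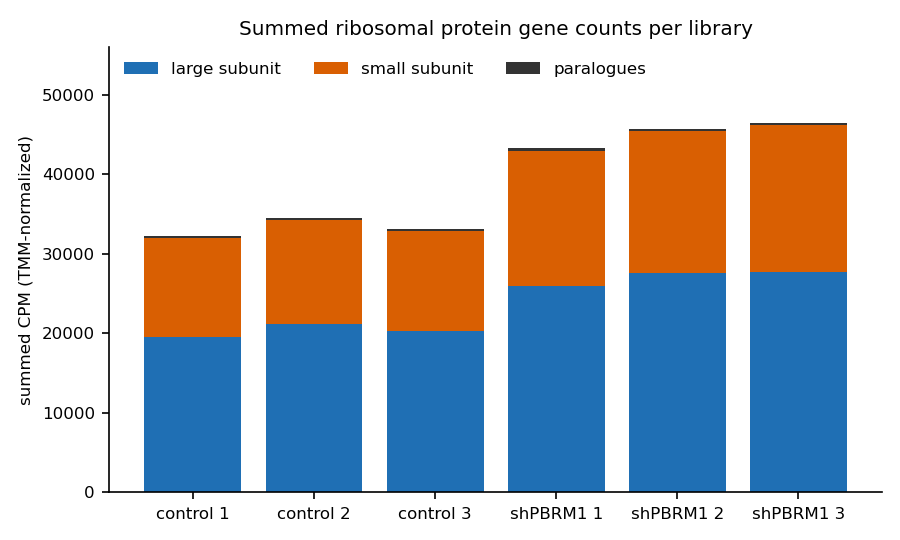
Summed CPM of the ribosomal protein genes (y axis, from 0) in each of the 6 libraries (x axis), stacked as large subunit (blue), small subunit (orange) and paralogue genes (black). The 3 shPBRM1 bars reach 43240 to 46481 CPM and the 3 control bars 32248 to 34543 CPM.

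Both subunits took part. For comparison, 31.5% of all tested genes were called higher and 33.2% lower. Of the 46 large subunit genes, 44 rose, none fell and 2 were not called, with a median log2 fold change of 0.39. Of the 31 small subunit genes, 28 rose, none fell and 3 were not called, with a median of 0.49. By DESeq2, and by edgeR at an unadjusted p under 0.05, there were likewise 0 genes lower in each subunit. The summed CPM went from 20355 ± 819 to 27089 ± 1028 (SD, n = 3) for the large subunit, 1.33 times the control level, and from 12678 ± 337 to 17770 ± 704 for the small subunit, 1.40 times. The log2 ratio of small to large subunit counts, which needs no scaling between libraries, was -0.66, -0.70 and -0.69 in control and -0.60, -0.63 and -0.59 in shPBRM1 libraries. The groups did not overlap, and the means differed by 0.07. The ratio of summed counts was not recomputed with transcript length and GC content modelled. The medians of the genes' log2 fold changes did depend on these properties. With both modelled per library together with the replicate number, they were 0.33 for the large and 0.34 for the small subunit genes.

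**Figure D3:**
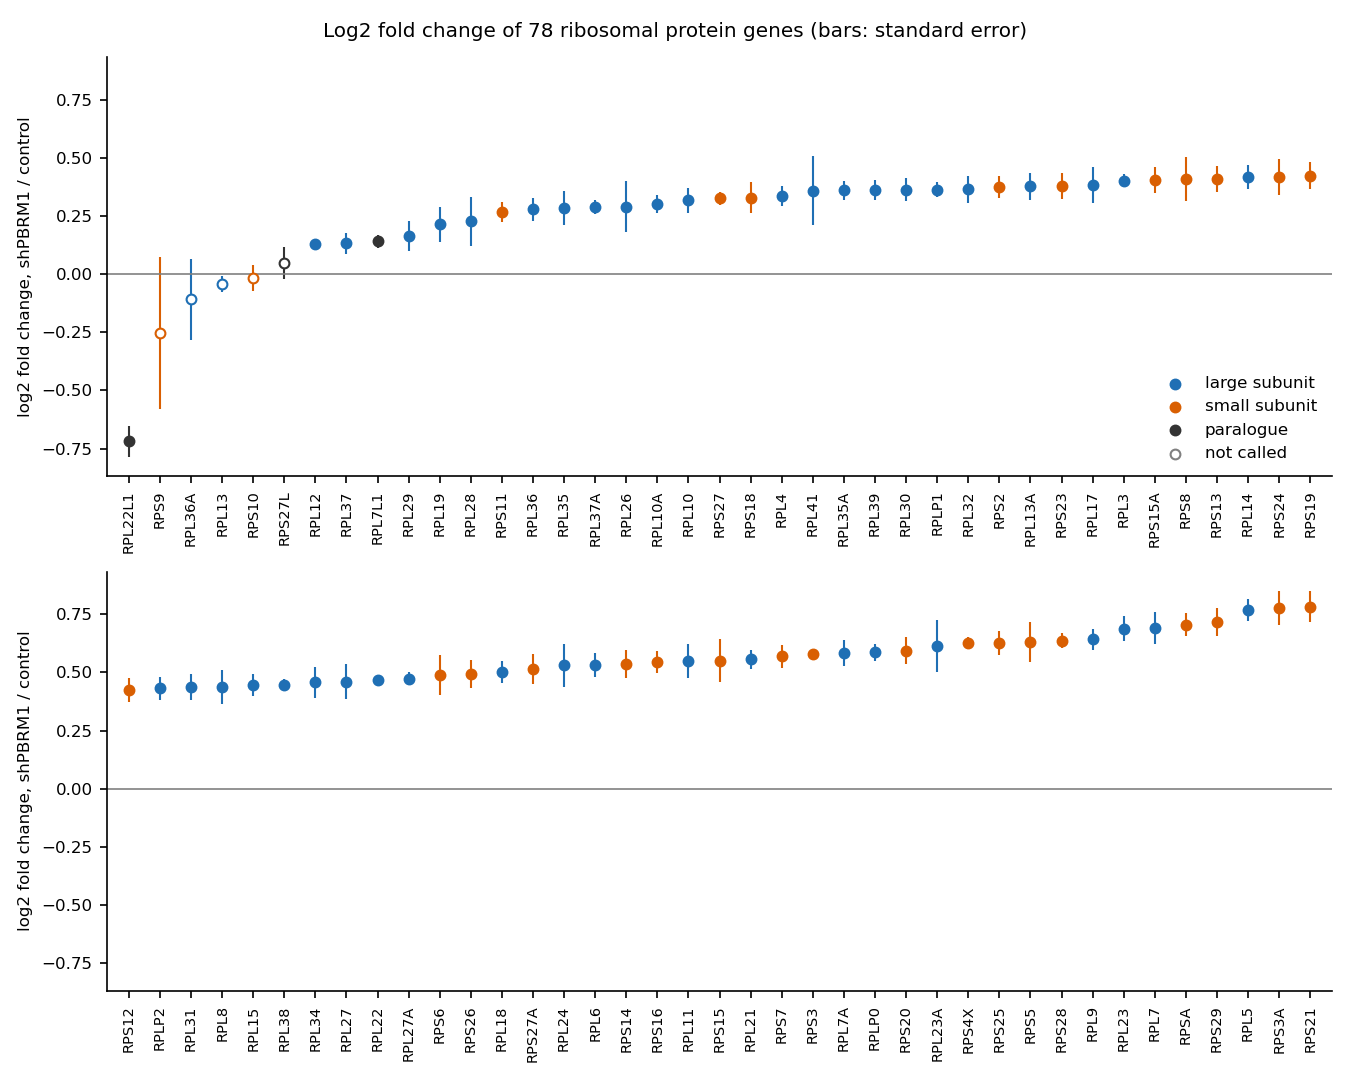
Log2 fold change (y axis, shPBRM1 over control) of 78 of the 80 ribosomal protein genes (x axis, in rising order over both rows of the plot), coloured by subunit, with bars for the standard error from the spread between replicates. Filled points passed the test and open points did not. RPL22L1 is the only filled point below 0, and RPS21, RPS3A and RPL5 end the order at 0.78, 0.78 and 0.77.

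The small subunit held 4 of the 8 largest increases. RPS21, a short protein at the solvent side of the 40S subunit, was at 257, 289 and 276 CPM in control and 448, 466 and 500 CPM in shPBRM1 cells (log2 fold change 0.78 ± 0.07, SE; adjusted p = 1.3e-12). RPSA, which lies next to RPS21 in the 40S subunit and is also known as the laminin receptor precursor, rose from 329, 352 and 331 CPM to 538, 531 and 579 CPM (0.70 ± 0.05, adjusted p = 1.8e-12). RPS3A, a 40S protein near the mRNA exit, rose from 266, 293 and 284 CPM to 453, 470 and 521 CPM (0.78 ± 0.07, adjusted p = 2.6e-12). In none of these 3 genes did the control and shPBRM1 libraries overlap, which held in this direction for 33.3% of all tested genes. RPS29, a small zinc-binding protein of the 40S head, was at 120, 136 and 124 CPM in control and 208, 201 and 213 CPM in shPBRM1 cells (0.72 ± 0.06, adjusted p = 7e-13).

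RPS4X, the X-linked gene for the 40S protein S4, was at 515, 520 and 513 CPM in control and 812, 769 and 807 CPM in shPBRM1 cells (0.62 ± 0.03, adjusted p = 1.1e-12). RPS6, the 40S protein that S6 kinases phosphorylate downstream of mTORC1, went from 1268, 1351 and 1312 CPM to 1638, 1972 and 1907 CPM (0.49 ± 0.09, adjusted p = 4.9e-09). Its lowest shPBRM1 library, replicate 1, still lay above every control. RPS2, another abundant 40S mRNA, rose from 1034 ± 35.6 to 1340 ± 59.0 CPM (SD, n = 3; log2 fold change 0.37, adjusted p = 1e-08).

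In the large subunit, RPL5 and RPL11 form with 5S rRNA the particle that is built into the 60S subunit and that, when free, binds the p53 ligase MDM2. RPL5 was at 568, 596 and 598 CPM in control and 946, 1010 and 1046 CPM in shPBRM1 cells (log2 fold change 0.77 ± 0.05, SE; adjusted p = 1.1e-13). RPL11 was at 555, 597 and 565 CPM in control and 763, 883 and 864 CPM in shPBRM1 cells (0.55 ± 0.07, adjusted p = 6.2e-10). Both partners therefore rose, with no overlap between the groups, as in 33.3% of all tested genes. RPL7, RPL23 and RPL9 complete the 8 largest increases, with log2 fold changes of 0.69, 0.69 and 0.64.

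The stalk of the 60S subunit, which recruits the GTPases of translation, is built on RPLP0 and carries RPLP1 and RPLP2. RPLP0 rose from 433, 449 and 418 CPM to 653, 633 and 667 CPM (0.59 ± 0.04, adjusted p = 1.1e-11). RPLP1 rose from 300, 317 and 298 CPM to 386, 391 and 399 CPM (0.36 ± 0.03, adjusted p = 3.4e-08). RPLP2 rose from 170, 190 and 175 CPM to 238, 239 and 244 CPM (0.43 ± 0.05, adjusted p = 2.3e-09). All 3 stalk genes were without overlap between the groups, as were 33.3% of all tested genes in this direction. The anchor RPLP0 had the largest log2 fold change of the 3.

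The smallest increases that were still called belonged to large subunit genes and to RPL7L1. RPL12, which sits at the base of the stalk, was at 655, 636 and 638 CPM in control and 695, 711 and 705 CPM in shPBRM1 cells (0.13 ± 0.02, adjusted p = 0.0036). RPL37 went from 436, 478 and 472 CPM to 502, 498 and 517 CPM (0.13 ± 0.04, adjusted p = 0.0092), and its call was lost without control replicate 1 (log2 fold change 0.09, adjusted p = 0.095). RPL29 (0.16), RPL19 (0.21) and RPL28 (0.23) followed, of which RPL28 was not called by DESeq2 (log2 fold change 0.23, adjusted p = 0.055). With library size as the only scaling, RPL12 and RPL37 had log2 fold changes of 0.08 and 0.08 and were not called, so that a rise of these 2 genes depends on the scaling.

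Among genes with at least moderate counts, RPL13 and RPS9 stood out from this pattern. RPL13, a 60S protein, was at 583, 610 and 574 CPM in control and 560, 588 and 568 CPM in shPBRM1 cells, so that the groups overlapped (log2 fold change -0.04 ± 0.03, adjusted p = 0.35). With library size only, its log2 fold change was -0.09 (adjusted p = 0.041), and with the replicate block alone it was -0.04. The sign turned with length and GC content added to the blocked model, at 0.063 (adjusted p = 0.045). RPS9, a 40S protein that acts in decoding accuracy, was at 143, 133 and 121 CPM in control and 121, 68.0 and 140 CPM in shPBRM1 cells. Replicates 1 and 3 of shPBRM1 thus lay within the control range and replicate 2 below it (log2 fold change -0.25 ± 0.33, adjusted p = 0.11). With the replicate number as a block the adjusted p was 6.5e-04 at a log2 fold change of -0.30, and without shPBRM1 replicate 2 the log2 fold change was -0.01, so that a fall of RPS9 rests on that library.

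Per kilobase of coding sequence, a length that leaves out the UTRs and so places genes with a short coding part too high, 75 of the 80 genes lay above 100 CPM in control cells, with a median of 790 among these 75. By plain CPM the most abundant members were RPL8, RPS6, RPL10 and RPS2, at 1187 to 1792 CPM over the 6 libraries. On the coding-length scale these 4 were at 1975, 1754, 1707 and 1176 CPM per kilobase in control cells. RPL8 rose by 0.44 and RPL10, which joins the 60S subunit late in its maturation, by 0.32 on the log2 scale.

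RPL36A, RPS10 and RPL17 were among the lowest rows. RPS10 had 196 to 334 counts and RPL36A 207 to 294 counts per library, and neither was called (log2 fold changes -0.02 and -0.11). RPL17 had 395, 472 and 500 counts in control and 759, 560 and 793 counts in shPBRM1 libraries and was called higher (0.38 ± 0.08, adjusted p = 2.5e-04). On the coding-length scale these 3 lay between 10.8 and 18.2 CPM per kilobase in control cells. In the GENCODE release 29 annotation the exons of RPS10, RPL36A and RPL17 are shared on the same strand with the readthrough genes RPS10-NUDT3, RPL36A-HNRNPH2 and RPL17-C18orf32. The 3 readthrough rows had 0 counts in all 6 libraries. The part of such shared exons in the low counts was not tested.

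In the reported fit the 3 paralogues had lower log2 fold changes than their parent genes, an order that turned for RPS27L with length and GC content in the model. RPL22L1 was the only member that fell, from 43.6, 45.6 and 43.5 CPM in control to 27.3, 24.6 and 28.5 CPM in shPBRM1 cells (log2 fold change -0.72 ± 0.07, SE; adjusted p = 9.8e-11). Its parent RPL22, an RNA-binding 60S protein that is lost by mutation in some tumors and is known to restrain RPL22L1, rose from 131, 129 and 132 CPM to 176, 181 and 184 CPM (0.47 ± 0.02, adjusted p = 4.5e-11). In neither gene did the groups overlap, as in 5141 of the 15450 tested genes that were higher and 5413 that were lower. Parent and paralogue moved in opposite directions. RPL22L1 thus went from 33.9% to 14.8% of the CPM of RPL22. The log2 ratio of the pair was -1.59, -1.50 and -1.60 in control and -2.69, -2.88 and -2.69 in shPBRM1 libraries, a difference of -1.19.

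RPL7L1, which takes part in the assembly of pre-60S particles, was at 213, 220 and 223 CPM in control and 247, 234 and 243 CPM in shPBRM1 cells (0.14 ± 0.03, adjusted p = 0.0022). Its parent RPL7 rose more, from 788, 888 and 903 CPM to 1335, 1388 and 1440 CPM (0.69 ± 0.07, adjusted p = 3e-12). The log2 ratio of RPL7L1 to RPL7 was -1.89, -2.01 and -2.02 in control and -2.43, -2.57 and -2.57 in shPBRM1 libraries, a difference of -0.55. RPS27L, a target of p53, was at 22.1, 20.9 and 22.3 CPM in control and 20.9, 22.2 and 24.2 CPM in shPBRM1 cells, and the groups overlapped (0.05 ± 0.07, adjusted p = 0.55). Its parent RPS27 rose from 472, 453 and 461 CPM to 580, 564 and 593 CPM (0.33 ± 0.03, adjusted p = 1.4e-07). The log2 ratio of RPS27L to RPS27 went from a mean of -4.41 ± 0.03 to -4.69 ± 0.09 (SD, n = 3), a difference of -0.28. With the replicate number, length and GC in the model, the log2 fold change of RPS27 was 0.03 and was no longer called, and that of RPS27L was 0.08, above its parent.

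In all 3 pairs the shPBRM1 ratios lay below every control ratio. The exact two-sided permutation test over the 6 libraries gave p = 0.1 for each pair, and 0.1 after adjustment over the 3, which is the smallest value that 3 against 3 libraries allow. Paired by replicate number, the exact sign-flip test gave its own smallest value of 0.25 for each pair.

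**Figure D4:**
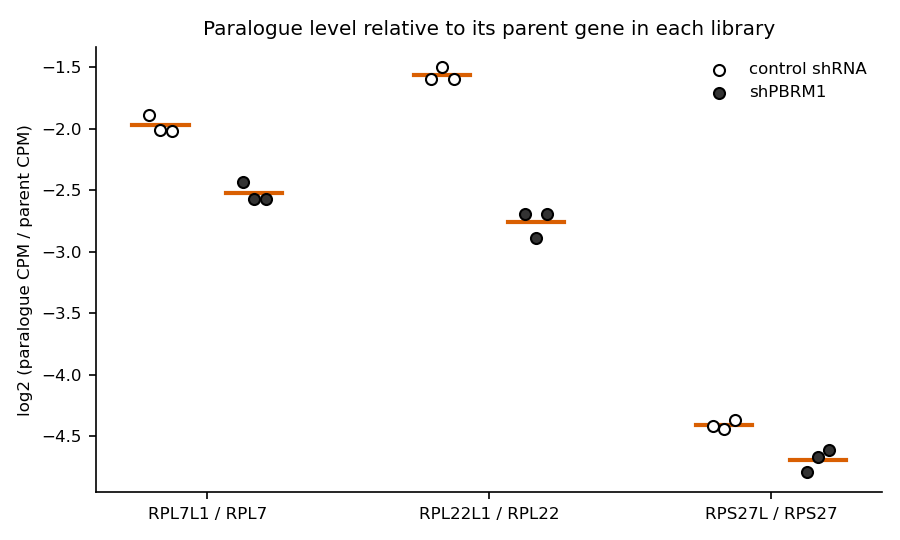
Log2 ratio of paralogue to parent CPM (y axis) in each library for the 3 pairs (x axis), with open points for control shRNA, filled points for shPBRM1 and orange lines for the group means. In each pair the filled points lie below the open points, by 1.19 for RPL22L1, 0.55 for RPL7L1 and 0.28 for RPS27L.

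The RefSeq start sites of the genes (GRCh38.p14) were examined for the TOP tract that ribosomal protein mRNAs share. Of the 80 genes, 65 were in the table of start sites used here, and several had more than 1 start. A run was counted where the annotated first base was C and at least the next 4 bases were each C or T on the strand of the gene. Such a run was found at a start of 47 of the 65 genes (72.3%), against 7.13% of the 11173 tested genes in the same table and 4.07% of all 35116 listed starts. The windows below run from 10 bases before the start to 20 bases from it, with the run in capitals. They show the genes with large increases RPS21, RPS3A, RPSA and RPS29, the genes RPL12 and RPL13 at the low end, and the paralogues with those parents that were in the table.
RPS21 (chr20:62387093-62387122, plus strand): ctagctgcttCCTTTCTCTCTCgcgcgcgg
RPS3A (chr4:151099618-151099647, plus strand): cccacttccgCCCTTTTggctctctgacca
RPSA (chr3:39406710-39406739, plus strand): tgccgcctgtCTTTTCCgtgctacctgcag
RPS29 (chr14:49598691-49598720, minus strand): agcgcgcagctggcagcggtggttgtttct
RPL12 (chr9:127451387-127451416, minus strand): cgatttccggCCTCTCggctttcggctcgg
RPL13, 1 of 3 starts (chr16:89560672-89560701, plus strand): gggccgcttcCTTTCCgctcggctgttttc
RPL22 (chr1:6199576-6199605, minus strand): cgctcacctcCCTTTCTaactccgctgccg
RPL22L1 (chr3:170870176-170870205, minus strand): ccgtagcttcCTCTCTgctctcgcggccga
RPS27 (chr1:153990752-153990781, plus strand): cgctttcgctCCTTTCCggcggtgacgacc
RPS27L (chr15:63157458-63157487, minus strand): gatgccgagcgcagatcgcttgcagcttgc
RPL7L1 (chr6:42879606-42879635, plus strand): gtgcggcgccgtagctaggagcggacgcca

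The run was present at the start of RPL22L1, which fell, and of its parent RPL22, which rose, and it was absent at the listed starts of RPS27L, RPL7L1 and RPS29. The 47 genes with a run had a median log2 fold change of 0.42, the 18 genes without it 0.45, and the 15 genes without an entry 0.41. Among all tested genes, the 797 with a run had a median of 0.03, of which 40.9% were called higher, and the 10376 without it a median of -0.02, of which 32.5% were called higher. The 797 include the 47 ribosomal protein genes with a run, 42 of them called higher. The 10376 include the 18 without it, 17 of them called higher. An absent run says only that these letters do not begin at the listed start.

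Other properties of the 80 genes were compared with their log2 fold changes as a description across genes, which are not independent replicates. Pearson's r was -0.06 with GC content, 0.16 with coding length and 0.43 with mean log2 CPM, and Spearman's rho was -0.16, 0.19 and 0.18. Among other genes the median log2 fold change was higher for short transcripts, although the share called higher was not: the median was 0.29 for the 484 other tested genes of up to 500 bases, 0.15 for the 1303 of 500 to 1000 bases and 0.01 for the 3225 of 1000 to 2000 bases, beside 0.34, 0.41 and 0.53 for the 6, 37 and 25 ribosomal protein genes of those lengths. For 2000 to 4000 bases the median was -0.04 over 5589 other genes and 0.31 over 8 members, and above 4000 bases -0.04 over 4571 other genes and 0.14 over 4 members. Of the other genes, 25.8%, 31.2%, 30.4%, 30.9% and 32.9% were called higher in these 5 classes, from short to long. With length, GC content and the replicate number in the model, 67 of the 80 genes were called higher and 3 lower, with a median log2 fold change of 0.33. Of all 15450 tested genes, that model called 5215 higher and 4902 lower, with a median of 0.01. RPL12, RPL19, RPL26, RPL29, RPL35, RPL39 and RPS27 lost their call in that model. Its largest increases were those of RPL23, RPS28 and RPL5, at 0.65, 0.64 and 0.61.

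To compare the genes with each other, each library was also scaled to the summed counts of the 80 genes. On this scale 63 of the 80 log2 fold changes lay within 0.25 of 0. Then 19 genes were called higher, beside 7.43% of all tested genes, and 20 lower, beside 65.4%, while 41 were not called. In this fit edgeR took the spread of most genes from the common trend alone (infinite prior degrees of freedom), so these calls rest little on a gene's own replicates. This scaling moves all genes by about the same amount, so that the order of the genes is nearly that of the reported fit by construction. RPS21, RPS3A and RPL5 were at 0.35, 0.34 and 0.33, and RPL22L1, RPS9 and RPL36A at -1.16, -0.70 and -0.55 (RPS9 with an adjusted p of 0.12). By comparison, their summed CPM differed between the groups by 0.44 on the log2 scale.

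Ribosomal protein genes that the symbol rule leaves out gave similar values. FAU, whose product is cut into a ubiquitin-like part and a ribosomal protein, rose by 0.49 ± 0.04 (log2, SE; adjusted p = 7.4e-11). RPS27A, a member and a fusion to ubiquitin, rose by 0.51 ± 0.06. Among further paralogues, RPL36AL rose by 0.64, RPL39L by 0.64 and RPL26L1 by 0.24 on the log2 scale. The log2 fold changes of RPL36A, RPL39 and RPL26 were -0.11, 0.36 and 0.29. RPL36AL and RPL39L thus lay above their parent genes, of which RPL36A had low counts, and RPL26L1 lay below its parent. RPL3L, a muscle gene, stayed under 0.4 CPM in every library and was not called (log2 fold change -0.71 ± 0.46, adjusted p = 0.22), and RPL10L, a testis gene, did not pass the filter. In all, 5 of the 6 tested genes rose, beside 31.5% of all tested genes, with a median of 0.56. By edgeR, also at an unadjusted p under 0.05, and by DESeq2, 0 were lower. Over all tested genes, edgeR called 33.2% lower.

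The other mRNAs with a known TOP tract, mostly translation factors, rose without exception among those tested. All 17 tested genes of the 18 listed were called higher, with a median log2 fold change of 0.48, beside 31.5% of all tested genes. PABPC1, the cytoplasmic poly(A)-binding protein, had the largest increase, from 1836, 1974 and 1972 CPM in control to 3504, 3748 and 3705 CPM in shPBRM1 cells (0.92 ± 0.05, adjusted p = 6.9e-17). EEF1G was listed at 0 counts in all 6 libraries and was not tested. The snoRNA host genes, whose spliced RNAs also begin with a TOP tract but are mostly not translated into stable proteins, gave other counts: 1 of 9 rose, beside 31.5% of all tested genes, 6 fell, beside 33.2%, and 2 were not called, with a median of -0.35. SNHG16 rose by 0.87 ± 0.04 and EPB41L4A-AS1 fell by 0.65 on the log2 scale (SE 0.06, adjusted p = 7.2e-08).

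Genes for the making of ribosomes moved in both directions. Ribosome assembly factors mostly fell, and chaperones and importers of ribosomal proteins mostly rose. Of all tested genes, 31.5% were called higher and 33.2% lower. Of 26 ribosome assembly factors, 5 rose, 16 fell and 5 were not called, with a median log2 fold change of -0.15. Fibrillarin (FBL), the methyltransferase of box C/D snoRNPs, rose from 124, 124 and 122 to 171, 171 and 165 CPM (0.45 ± 0.02, adjusted p = 6.2e-11), and RRP12 went down from 73.3, 74.2 and 72.4 to 52.2, 49.9 and 47.9 CPM (-0.55 ± 0.04, adjusted p = 2.9e-11). Of 11 genes for RNA polymerase I and its factors, 4 rose, 6 fell and 1 was not called, with a median of -0.11; with length and GC offsets and the replicate block, 3 rose and 3 fell. The polymerase subunit POLR1E rose by 0.37 ± 0.03 and TAF1A, of the promoter selectivity factor, fell by 0.44 (SE 0.09). Of 13 chaperones and importers of ribosomal proteins, 10 rose, none fell by edgeR or DESeq2 and 3 were not called, with a median of 0.27. At an unadjusted p under 0.05, 1 of the 3, AATF, was lower. NAP1L1, 1 of the 10 that rose, is also counted among the other TOP mRNAs above. Importin-5 (IPO5), a carrier of ribosomal proteins into the nucleus, rose most, from 395, 413 and 421 to 700, 661 and 695 CPM (0.74 ± 0.04, adjusted p = 1.7e-13).

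Of 18 genes that control the TOP mRNAs or ribosome production, 9 rose, 6 fell and 3 were not called, with a median of 0.07, again beside 31.5% higher and 33.2% lower over all tested genes. EIF4EBP2, a repressor of cap-dependent translation that mTORC1 inactivates, rose from 148, 147 and 151 to 287, 293 and 296 CPM (0.98 ± 0.02, adjusted p = 9.4e-17). MAX, the partner of MYC, went from 66.8, 67.9 and 66.7 to 36.1, 41.3 and 38.0 CPM (-0.81 ± 0.06, adjusted p = 4.2e-13). Of the 9 genes in the p53 branch that free RPL5 and RPL11 can act on, 4 rose and 5 fell, with a median of -0.35. ZMAT3 rose by 0.37 ± 0.04, and FAS went from 8.44, 7.76 and 8.57 to 2.42, 2.13 and 1.74 CPM (-1.98 ± 0.14, adjusted p = 2e-12).

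**Figure D5:**
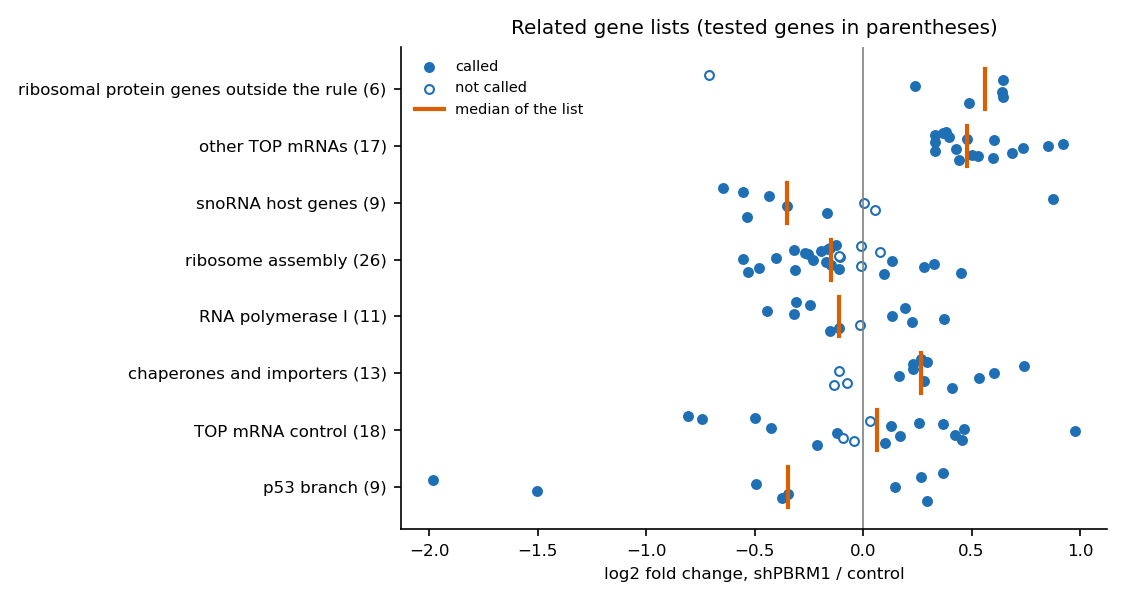
Log2 fold change (x axis, shPBRM1 over control) of the tested genes in 8 related gene lists (rows, with the number tested in parentheses), with filled points for genes that passed the test, open points for those that did not and orange bars for list medians. The other TOP mRNAs lie wholly above 0 around 0.48, and the ribosome assembly and snoRNA host genes have medians of -0.15 and -0.35.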

How the data were processed

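RNA-seq libraries from BT-549 cells (3 control shRNA, 3 shPBRM1) were analyzed. The values the authors deposited are raw counts, 1 row per symbol and not normalized. Per the labels, they used STAR 2.7.9a, featureCounts and GRCh38.p7. The library kit keeps strand, and whether strand was used in counting is not given in the sources used here. Of its 37887 rows, 14 hold dates for symbols. Control columns, which are not named control shRNA, were matched to the titles by replicate number and by lacking shPBRM1.

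The members and gene lists were chosen with earlier results of these data known. Genes were named by a set rule: paralogues and parents, stalk genes, RPL5, RPL11, RPSA, RPS6, RPS4X, the 8 largest and 8 smallest called changes, the 4 highest and 4 lowest mean levels, and from each list the called genes with the largest changes. RPL13, RPS9, RPS28, RPL41 and RPS27A, and the genes that lost their call in another model, were named after their values were seen. A few genes that this rule names are counted but not reported by name here.

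Counts were tested with edgeR 4.0.16 in R 4.3.3 (filterByExpr, TMM, quasi-likelihood F-test, Benjamini-Hochberg adjustment over 15450 genes). SE is from the spread of replicate log2 CPM (prior count 2). Alternatives were DESeq2 1.42.0, other scalings and filters, the replicate block, length and GC offsets, added pseudogene counts and each library left out. Scaling to the summed members, with robust edgeR estimates, and the offset model for paralogue differences were chosen after seeing the data. Symbols were matched to GENCODE release 29 (37186 rows) for lengths and overlaps. Coding length is the longest coding sequence of the principal transcripts.

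Replicate numbers come from the titles. Same-numbered libraries deviated together (correlations 0.73, 0.59 and 0.42 over 5622 genes), each over 0.1, so the numbers were taken to pair them, although shPBRM1 replicate 3 correlated more with control replicate 2 (0.46) than with control replicate 3.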

Additional observations from a re-analysis of the deposited data

How the results depend on the processing

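Of the 80 genes, 64 were called higher in the reported fit and in every refit at the same threshold other than the scaling to their own sum, and the count of genes called higher was 56 to 73 over all alternatives other than that scaling, with the lowest count against a fold change of 1.2. The count that fell was 1 in the reported fit. It was 2 with the replicate block, with no low-count filter and with added pseudogene counts, 3 with library size only and with the replicate block with length and GC offsets, and 1 to 2 with a library left out (2 without shPBRM1 replicate 1 and without replicate 3). RPS9 joined RPL22L1 in these counts, except with added pseudogene counts, where RPS10 did (log2 fold change -0.24), and the third gene was RPL13 with library size only and RPL36A with the offsets (-0.40). Without the filter, edgeR took its prior degrees of freedom as infinite, so that the spread of RPS9 itself was not used. Scaled to the summed members, chosen after seeing the data, 19 rose and 20 fell, with RPL22L1 past a 2-fold change there (-1.16) and no member past it in any other fit, since the common shift is then removed. With length and GC offsets in the blocked model the median log2 fold change was 0.33 for all 80, 0.33 for large and 0.34 for small subunit genes, RPL12 was at -0.055 and RPL13 at 0.063, and 6 RNA polymerase I genes were called in place of 10; the cause was not tested. With a library left out, the medians were 0.40 to 0.46, 0.39 to 0.43 and 0.46 to 0.54. The replicate block changed no member's call other than that of RPS9. In the blocked model with length and GC offsets, chosen for these after seeing the data, the difference of log2 fold changes between paralogue and parent was 0.053 for RPS27L, against the reported direction, and -0.33 for RPL7L1; it kept its direction for all 3 pairs in the other alternatives run. Low rows such as RPL36A limit what these counts can show.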
